A study of Mus musculus with 10 samples.

Results

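The cytosolic ribosomal protein genes were followed across all arrays of the series as a set of 75 probes, out of 21766 probes on the array. The rule used gene symbols and no measured value, but the set was chosen with earlier results of these data known. A probe belonged to the set when its only symbol in the platform annotation was that of a numbered Rpl or Rps gene, of the stalk proteins Rplp0, Rplp1 or Rplp2, or Rpsa; the Rps6k kinases and pseudogene symbols were left out. The 75 probes carried 67 symbols, 43 of the large subunit (47 probes) and 24 of the small subunit (28 probes), and 8 symbols had 2 probes each. The study set the rostral against the caudal end of the embryonic mouse neocortex at E11.5. Tissue came from C57, an inbred strain, and MF1, an outbred stock. The labels name no treatment. Each pool joined the tissue of 3 embryos per the sample labels, or of 2 or more per the series' design text, from within a litter, so that a pool and not an embryo is the replicate. Amplified cDNA of both ends of a pool, in Cy3 and in Cy5, shared an array, once in each dye order, which gave 10 arrays of 5 pools, 2 of C57 and 3 of MF1; the design text speaks of 3 sets per strain.

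Ribosomal proteins coat and fold the ribosomal RNA of the large and the small subunit, and each is needed in about equal number, so that their genes are known for being expressed together. Their messenger RNAs typically begin with a run of pyrimidines at the start site, the terminal oligopyrimidine tract, through which mTOR signalling controls their translation. In the early cortical neuroepithelium, where cells divide and grow fast, ribosomal protein transcripts are among the most abundant.

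Values are given as the log2 of caudal over rostral signal, positive where the caudal end had more RNA; pool values follow the order of the pool numbers within a strain. The deposited ratios were read as Cy5 over Cy3; this is likely but is not stated, and under the opposite reading every sign turns, those of the dye-order differences included. The basis is the dye labels together with known gradients: Nr2f1, a nuclear receptor of the caudal cortex, had a mean ratio of 1.85 on one probe, positive in 5 of 5 pools, and of 0.57 on the other, positive in 4 of 5 and negative in MF1 pool 1, and Spry1, a feedback inhibitor of rostral FGF signalling, was negative in 5 of 5. A ratio was present for 20191 to 20870 probes per C57 array and 13723 to 18288 per MF1 array. The arrays were not centred on each other, and the median over all tested probes lay at -0.10 and 0.36 in C57 pools 1 and 2 and at -0.18, 0.13 and 0.15 in MF1 pools 1, 2 and 3. Since ratios carry no level, the tissue label was not checked against the abundance of its markers. A ratio in whole tissue cannot tell fewer cells of a type from less RNA per cell.

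Of the 75 probes, 65 had a ratio on all 10 arrays (86.7%, against 41.0% of all probes), and these same 65 were the ones tested. They are 44 probes of the large and 21 of the small subunit.

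The ribosomal protein ratios lay close together within a pool and shifted as a block from pool to pool. Their median was 0.22 in both C57 pools, and it was -0.10, -0.14 and -0.067 in MF1 pools 1, 2 and 3. Their interquartile range was 0.20, 0.13, 0.16, 0.28 and 0.17 log2 units in these 5 pools, against 0.41, 0.21, 0.40, 0.70 and 0.61 for all tested probes. All 65 members had a ratio on every array, whereas the tested probes include some that did not. The range over complete probes alone was not computed. All 65 members were positive in C57 pool 2 and 57 of 65 in C57 pool 1, whereas 58, 46 and 44 of 65 were negative in MF1 pools 1, 2 and 3. Among all tested probes, 11317 of 11855 were positive in C57 pool 2 and 4276 of 11855 in C57 pool 1. In MF1 pools 1, 2 and 3, 8557 of 11371, 3942 of 10082 and 3965 of 11181 of all tested probes were negative. Against the median of all tested probes of the same pool the picture did not follow strain. There, 61 of 65 members lay above it in C57 pool 1 but 8 in C57 pool 2, and 47 in MF1 pool 1 but 8 and 7 in MF1 pools 2 and 3.

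**Figure D1:**
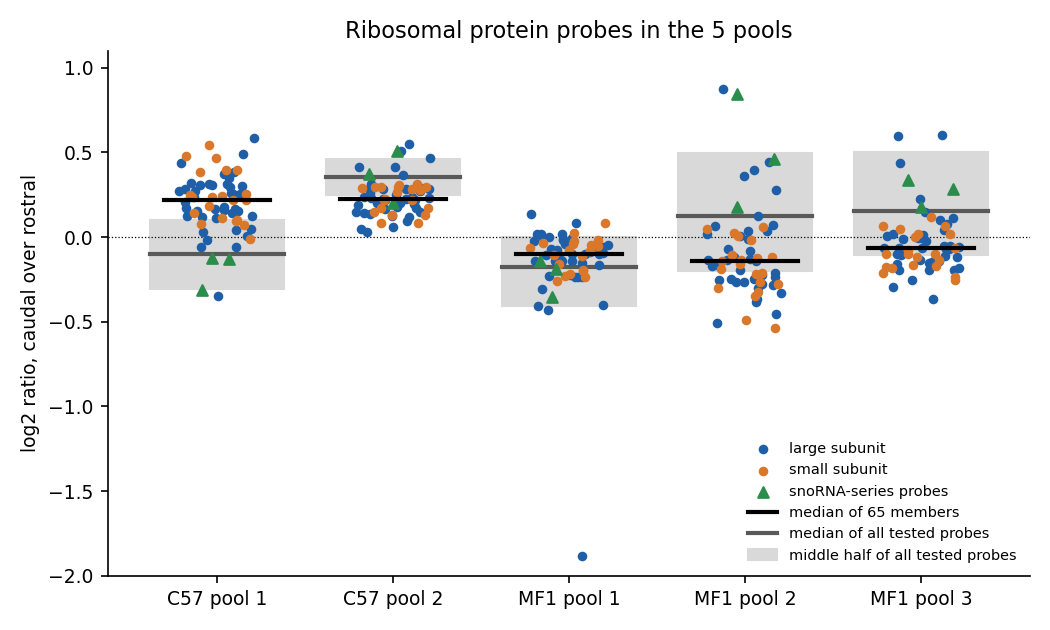
Each point is a tested ribosomal protein probe in a pool, as its mean log2 ratio of caudal over rostral RNA (vertical axis) over both dye orders; blue marks the large subunit, orange the small subunit and green triangles the 3 snoRNA-series probes. Black lines are member medians, and grey lines and boxes are the median and the interquartile range of all tested probes; the members sit above the grey line in C57 pool 1 and MF1 pool 1 and below it in the other pools.

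No member passed the test for a rostrocaudal difference over both strains. In limma's fit 0 of 65 members had an adjusted p under 0.05, as did 0.0% of the 11855 probes tested, and the smallest adjusted p of a member was 0.983. At an unadjusted p under 0.05 there were also 0 members in either direction, against 1.98% of probes on the positive side and 1.11% on the negative side. The member median of the mean ratio was 0.060, with 52 of 65 above 0 (80.0%, against 69.4% of tested probes), and the median over all tested probes was 0.087. The members ranged from -0.17 to 0.28.

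The first probe for Rplp0, the scaffold of the ribosomal stalk, had the highest mean ratio of a member probe. With both probes of the gene averaged, the mean was 0.12, below those of several other genes, among them Rpl7l1, Rpl14, Rpl4 and Rpl15. That average takes in the second probe's -1.88 in MF1 pool 1. The first probe measured 0.49 and 0.41 (C57) and -0.23, 0.40 and 0.14 (MF1), so that 4 of 5 pools were positive and both C57 pools lay above all MF1 pools. The mean was 0.28 ± 0.16 (SE, n = 5 pools, adjusted p = 0.983), a 1.21-fold ratio. Rpl14, a large-subunit protein, measured 0.31 and 0.51 (C57) and -0.14, 0.036 and 0.22 (MF1), with a mean of 0.22 ± 0.14 (SE). Rpl15, needed for processing of the large-subunit ribosomal RNA, gave 0.11 and 0.47 (C57) and -0.10, 0.36 and -0.070 (MF1); its mean was 0.18 ± 0.16 (SE) and its highest values came from C57 pool 2 and MF1 pool 2. Rpl4, which lines the exit tunnel of the nascent chain, was the only member positive in all 5 pools (1.54% of members, against 4.16% of probes), with 0.28 and 0.18 (C57) and 0.082, 0.44 and 0.10 (MF1) and a mean of 0.22 ± 0.14 (SE). At the other end, the first probe for Rpl23, a large-subunit protein that also binds Mdm2, measured -0.35 and 0.048 (C57) and -0.24, -0.38 and 0.042 (MF1), with a mean of -0.17 ± 0.15 (SE); it was negative in C57 pool 1, where most members were positive. Rps12, of the small subunit, gave 0.10 and 0.13 (C57) and -0.11, -0.54 and -0.17 (MF1) on its first probe, so that both C57 pools were positive and all MF1 pools negative. Its mean of -0.079 ± 0.15 (SE), like those of Rpl10a at -0.032 ± 0.13 (SE) and Rps3a1 at -0.026 ± 0.13 (SE), joined opposite signs in the 2 strains. No member was negative in all 5 pools (0.728% of probes were).

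With the arrays used as deposited, most members had higher ratios in the C57 pools than in the MF1 pools. In 50 of 65 members (76.9%) both C57 pools lay above all MF1 pools, which held for 15.2% of the 8924 probes measured in every pool, and 0 members showed the reverse order (0.852% of probes). In 33 members (50.8%, against 4.25%) both C57 pools were above 0 and all MF1 pools below 0. The member median was 0.22 in C57, with 64 of 65 above 0 (98.5%, against 77.7% of probes), and -0.11 in MF1, with 11 of 65 above 0 (16.9%, against 55.2%). The medians over all tested probes were 0.13 and 0.033. The difference MF1 minus C57 had a member median of -0.33, against -0.10 for all tested probes, and was above 0 in 3 of 65 (4.62%, against 38.4% of probes). In limma's test of the strain difference 0 of 65 members and 0.0% of probes passed, with a smallest adjusted p of 0.999, so that for no single gene did the difference exceed the spread between pools at that threshold. Within C57 and within MF1 the smallest adjusted p of a member was 1.0 and 0.995, with 0 members passing. Without adjustment too, 0 members were under 0.05 in C57 (1.44% of probes on the positive and 0.363% on the negative side) and in MF1 (1.55% and 2.4%).

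Once each pool was centred on the median of all tested probes, the separation was found in 3 of 65 members (4.62%), below the 6.63% of all probes, and these were Rpl14, Rpl22 and Rpl30; the reverse order was found in 0 members (6.7% of probes). Both C57 pools lay above all MF1 pools in 4 members with each array centred on its own median (Rpl14, Rpl22, Rpl30 and Rpl34; 6.15%, against 6.49% of probes) and in 5 with the pool's Gapdh control spots as the zero (the first Rpl27a probe, Rpl30, Rps19, Rps29 and Rps3; 7.69%, against 2.05% of probes). With the dye orders used singly, that count was 52 of 65 where the caudal RNA carried Cy5 (80.0%, against 14.1% of probes) and 23 where the rostral RNA did (35.4%, against 15.5%). After centring by pool, 1 member, Rpl22 (1.54%, against 1.62%), had both C57 pools above 0 and all MF1 pools below 0. The member median minus the median of all probes was -0.23 in the strain difference; it was -0.43 and -0.030 in the dye orders with Cy5 on the caudal and on the rostral RNA, and -0.014 without C57 pool 1. In C57 it was 0.094 with both pools and -0.13 without C57 pool 1.

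**Figure D2:**
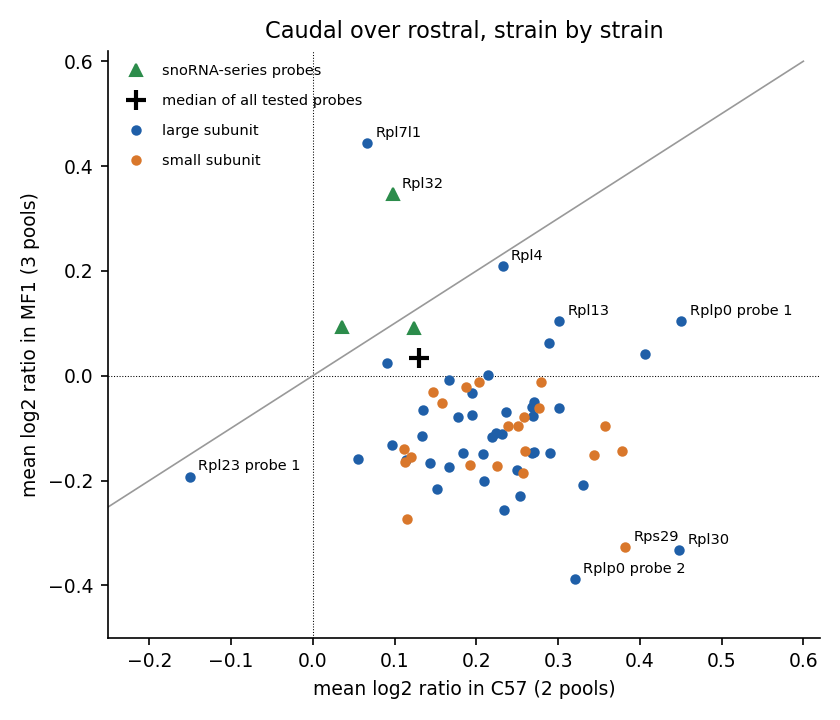
Each point is a tested ribosomal protein probe, with its mean log2 ratio of caudal over rostral RNA in C57 (2 pools) on the horizontal axis and in MF1 (3 pools) on the vertical axis; the grey line marks equal ratios and the cross the median of all tested probes. Of the 65 points, 62 lie below the line; Rpl7l1 and 2 of the 3 snoRNA-series probes (green triangles) lie above it.

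Rpl30, a large-subunit protein that also binds selenoprotein transcripts, had the lowest strain difference. It measured 0.58 and 0.31 (C57) and -0.40, -0.46 and -0.14 (MF1), groups that did not overlap before or after centring. Its difference MF1 minus C57 was -0.78 ± 0.29 (SE, adjusted p = 0.999), with an unadjusted p of 0.037 in limma; it was the only member under 0.05 without adjustment, 1.54% of members against 1.33% of probes on the negative side, with 0 members and 0.548% of probes on the positive side. Rps29, of the small subunit and a Diamond-Blackfan anaemia gene, measured 0.54 and 0.22 (C57) and -0.26, -0.49 and -0.23 (MF1), a difference of -0.71 ± 0.29 (SE). Rpl38, whose loss in mice alters the translation of Hox transcripts, gave 0.44 and 0.22 (C57) and -0.0035, -0.37 and -0.25 (MF1). Rps3, at the entry of the messenger RNA channel, gave 0.40 and 0.32 (C57) and -0.080, -0.10 and -0.10 (MF1), the narrowest MF1 values among these 4. All 4 had both C57 pools positive and all MF1 pools negative, and of these Rpl30 alone kept the order of the strains when each pool was centred on all tested probes; against the Gapdh spots Rpl30, Rps29 and Rps3 kept it.

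Both subunits showed the shift between strains. In C57 the median was 0.22 for the 44 large-subunit probes and 0.24 for the 21 of the small subunit, and in MF1 it was -0.11 and -0.14. Both C57 pools lay above all MF1 pools in 31 of 44 large-subunit and 19 of 21 small-subunit probes, against 15.2% of all probes; centring by pool left 3 of the 65 members in that order. The difference between the subunits was not tested.

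Among the stalk proteins, which recruit the elongation factors, Rplp1 and Rplp2 followed the set and Rplp0 did so in part. Rplp1 measured 0.26 and 0.24 (C57) and -0.14, -0.24 and -0.16 (MF1), and Rplp2 measured 0.30 and 0.17 (C57) and -0.074, -0.51 and -0.18 (MF1). Rpl5 and Rpl11, which together with ribosomal RNA can hold Mdm2 and so stabilise p53, were close to each other in sign. Rpl5 gave 0.050 and 0.060 (C57) and -0.087, -0.19 and -0.20 (MF1) and Rpl11 gave 0.25 and 0.032 (C57) and -0.24, -0.25 and -0.012 (MF1); in each of them all C57 pools were above 0 and all MF1 pools below it. Rpl10, which joins the large subunit late in its assembly, gave 0.20 and 0.26 (C57) and -0.14, -0.13 and -0.059 (MF1). Rps6, the substrate of the S6 kinases, gave 0.094 and 0.13 (C57) and -0.11, -0.19 and -0.12 (MF1), a narrower range than that of Rplp2. Rpsa, the small-subunit protein also known as a laminin receptor, departed from this pattern on both of its probes: the first gave 0.11 and 0.30 (C57) and -0.20, 0.049 and 0.12 (MF1) and the second -0.012 and 0.31 (C57) and -0.041, -0.12 and 0.064 (MF1), so that the strains overlapped.

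The paralogs were set beside the genes they resemble, whose near-identical stretches could share signal on the array. Rpl7l1, a nucleolar relative of Rpl7, went against the set, with -0.061 and 0.19 (C57) and -0.14, 0.87 and 0.60 (MF1), and its mean was 0.26 ± 0.20 (SE). Rpl7 itself gave 0.31 and 0.13 (C57) and -0.14, -0.073 and -0.14 (MF1). In MF1 pools 2 and 3 the paralog was therefore well above and Rpl7 below 0, while in MF1 pool 1 both were negative. Rpl22l1 gave 0.31 and 0.23 (C57) and 0.018, -0.14 and -0.11 (MF1), and Rpl22 gave 0.13 and 0.41 (C57) and -0.22, 0.073 and -0.0040 (MF1); both had the C57 pools above the MF1 pools. Rpl39l, a relative of Rpl39 best known from the testis, gave -0.018 and 0.20 (C57) and -0.024, 0.016 and 0.080 (MF1), with overlap of the strains, and Rpl39 gave 0.25 and 0.28 (C57) and -0.10, -0.28 and -0.066 (MF1) without overlap of the strains. Rps27l, known as a p53 target, gave 0.39 and 0.17 (C57) and 0.084, -0.018 and -0.25 (MF1). Rpl3l, the muscle paralog, was measured in both dye orders in 3 pools only, at -0.38 and -0.021 in C57 and 0.53 in MF1 pool 1, above both C57 pools; this MF1 value joined 2.20 with Cy5 on the caudal RNA and -1.15 with the dyes exchanged, so that the order rests on 1 array. Rpl3 gave 0.27 and 0.12 (C57) and -0.10, 0.068 and -0.064 (MF1).

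Symbols with 2 probes showed how closely separate probes of a gene agreed. The probes for Rpl35a differed by -0.025 ± 0.12 (SD, n = 5 pools) and at most by 0.17. Those for Rpsa differed by 0.034 ± 0.13 (SD, n = 5 pools), also at most by 0.17. The probes for Rplp0 lay closer in the other 4 pools but parted by 1.65 in MF1 pool 1, where the second probe read -1.88; there the array with Cy5 on the rostral RNA gave -4.14 and the other array 0.38. The mean of the second Rplp0 probe was -0.034 ± 0.38 (SE), and without MF1 pool 1 it was 0.34. The gene identifier of this probe, and that of the Rpl5 probe, was not matched in RefSeq; the other 73 kept their symbol. For Rps18, 2 pools had both probes, and these parted by up to 1.18.

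In 5 member probes the symbol may not stand for the messenger RNA. They were made from a numbered series of sequence entries, with 30 probes on the array, and sit under Rpl23 (probe 2), Rpl27a (probe 2), Rps12 (probe 2), Rps16 (probe 2) and Rpl32, which has no other probe. RefSeq lists the entry of the Rps16 probe as a small nucleolar RNA gene, and it places at least 1 such gene inside each of these 5 host genes, in whose introns small nucleolar RNAs are commonly encoded. Which of the transcripts these probes read was not tested. The 3 that were measured throughout went with each other. The Rpl32 probe gave -0.31 and 0.51 (C57) and -0.14, 0.85 and 0.34 (MF1), the second Rpl27a probe -0.13 and 0.20 (C57) and -0.36, 0.46 and 0.18 (MF1) and the second Rpl23 probe -0.13 and 0.37 (C57) and -0.19, 0.18 and 0.28 (MF1). All 3 were negative in C57 pool 1 and positive in MF1 pools 2 and 3, the opposite of the first Rpl27a probe, which gave 0.31 and 0.20 (C57) and -0.31, -0.28 and -0.10 (MF1). The first Rpl23 probe was negative in C57 pool 1 and positive in MF1 pool 3 like them, and negative in MF1 pool 2. The median over all tested probes had the signs of the 3 snoRNA-series probes in every pool, at -0.10 and 0.36 (C57) and -0.18, 0.13 and 0.15 (MF1). Among all tested probes, the median of the 3 lay at percentiles 45.4 and 54.6 (C57) and 48.4, 72.9 and 60.9 (MF1). Without these 3 probes the member medians moved to 0.23, 0.22, -0.091, -0.15 and -0.068 in the 5 pools.

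The ribosomal ratios also differed in median between the dye orders. With Cy5 on the caudal RNA the member median was 0.29, 0.47, -0.026, -0.12 and -0.033 in C57 pools 1 and 2 and MF1 pools 1, 2 and 3, and with the dyes exchanged it was 0.072, -0.034, -0.16, -0.17 and -0.023. The median over members of the difference between dye orders was 0.23, against 0.36 over all tested probes, and 53 of 65 members had a mean above 0 (81.5%, against 81.0%). It was positive in all 5 pools for 27 of 65 members (41.5%, against 32.3% of probes) and negative in all 5 for 3 (4.62%, against 1.99%), namely Rpl30, Rpl38 and Rps3. Against the median of all probes of the same pool, 4 members lay above in all 5 pools (6.15%, against 9.03%), namely Rpl11, Rpl32 and the second probes for Rpl23 and Rpl27a, and 13 below (20.0%, against 12.6%). In limma's test 0 of 65 members and 0.0% of probes passed, the smallest adjusted p of a member being 0.162. Without adjustment 13 members were under 0.05 on the positive side (20.0%, against 24.0%) and 1, Rps3, on the negative side (1.54%, against 2.71%).

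Across the members, dye-order differences were alike from pool to pool, and regional ratios were so in some pairs of pools only. Pearson's r between pools over the 65 members was 0.14 to 0.70 for the dye-order difference, with a median of 0.43, and -0.47 to 0.67 for the ratio, with a median of -0.075. Over the 8924 probes measured everywhere the corresponding medians were 0.18 and 0.035. These are correlations across genes that share arrays, and genes are not independent replicates. Among the members, the lowest r of either kind came from a pair with MF1 pool 1, where the second Rplp0 probe read -1.88. That probe was kept in the r between pools, and its part in them was not tested. The 2 arrays of a pool gave the same sign of the ratio for 47, 26, 30, 47 and 37 of 65 members. These were 72.3%, 40%, 46.2%, 72.3% and 56.9%, against 55.8%, 59.8%, 47.4%, 56.1% and 60.4% of the 8924 probes. Across the members the 2 arrays correlated with r of 0.39, -0.35, -0.34, 0.47 and 0.31. Leaving out the second Rplp0 probe turned the value of MF1 pool 1 to -0.27. Over all 8924 probes the r within a pool lay between -0.07 and 0.06.

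**Figure D3:**
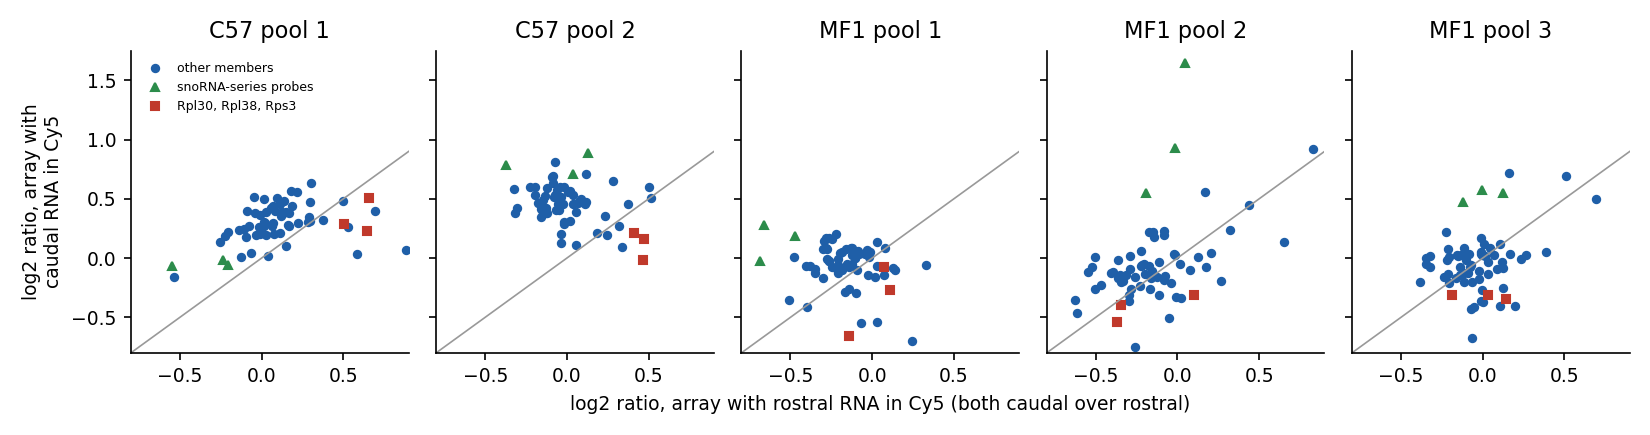
Each panel is a pool and each point a tested ribosomal protein probe, with its log2 ratio of caudal over rostral RNA with Cy5 on the rostral RNA (horizontal axis) and on the caudal RNA (vertical axis); the grey line marks equal values, and the second Rplp0 probe of MF1 pool 1 lies outside the axes. Rpl30, Rpl38 and Rps3 (red squares) lie below the line in all 5 pools and the snoRNA-series probes (green triangles) above it.

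The highest mean dye-order difference, 0.96 ± 0.76 (SE) for the second Rplp0 probe, rested on MF1 pool 1, where it was 4.51; the next 3 were those of the snoRNA-series probes. The Rpl32 probe differed by 0.48 and 0.76 (C57) and 0.66, 1.59 and 0.43 (MF1), with a mean of 0.76 ± 0.23 (SE, n = 5 pools, adjusted p = 0.163). The second Rpl27a probe had a mean difference of 0.69 ± 0.20 (SE) and the second Rpl23 probe one of 0.60 ± 0.15 (SE); its adjusted p of 0.162 was the smallest of the set. Among the other members, Rpl11 differed by 0.48 and 0.70 (C57) and 0.49, 0.51 and 0.20 (MF1), a mean of 0.49 ± 0.14 (SE), and Rpl13a, a target of interferon signalling in macrophages, by 0.42 and 0.88 (C57) and 0.41, 0.21 and 0.34 (MF1), a mean of 0.49 ± 0.15 (SE). Both were positive in every pool. Rps6 had a mean of 0.47 ± 0.16 (SE). On the negative side Rps3 differed by -0.22 and -0.31 (C57) and -0.38, -0.42 and -0.48 (MF1), a mean of -0.35 ± 0.13 (SE, adjusted p = 0.185). The first Rpl27a probe had -0.39 ± 0.16 (SE), Rpl38 -0.28 ± 0.13 (SE), Rpl30 -0.26 ± 0.14 (SE) and the first Rplp0 probe -0.27 ± 0.17 (SE).

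The start sites of the members are shown because these genes are known for the pyrimidine tract. A link between the tract and the ratios was not tested. RefSeq promoter windows of GRCm38.p6, each of 250 bases before and 50 after an annotated start, were matched for 54 of the 67 symbols, with 66 promoters. The stretches below run from 25 bases before to 15 after the annotated start, in the direction of the gene, and capitals mark the longest unbroken run of C and T on the sense strand, of at least 8 bases, within the 15 bases on either side of the start.
Rpl38 (chr11:114668555-114668594, plus strand): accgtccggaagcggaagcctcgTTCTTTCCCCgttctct
Rps6 (chr4:86857353-86857392, minus strand): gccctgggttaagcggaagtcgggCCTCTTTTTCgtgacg
Rpl15 (chr14:18270972-18271011, minus strand): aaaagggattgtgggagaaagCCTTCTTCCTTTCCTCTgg
Rpl4 (chr9:64173362-64173401, plus strand): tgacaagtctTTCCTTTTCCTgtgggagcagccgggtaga
Rpl27a (chr7:109519170-109519209, plus strand): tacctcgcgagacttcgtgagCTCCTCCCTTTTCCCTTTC
Rplp2 (chr7:141447626-141447665, plus strand): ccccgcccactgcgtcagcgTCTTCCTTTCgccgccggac
The next 3 hold no such run. Outside the snoRNA series, the mean dye-order difference was negative in 6 of 21 tested members with a run. It was negative in 3 of 31 with a start but no run. Rpl38 and the first Rpl27a probe are among the former, and Rps3 and the first Rplp0 probe among the latter.
Rpl7l1 (chr17:46782642-46782681, minus strand): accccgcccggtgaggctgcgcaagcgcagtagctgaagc
Rplp0 (chr5:115559442-115559481, plus strand): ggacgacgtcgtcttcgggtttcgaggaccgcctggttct
Rps3 (chr7:99483695-99483734, minus strand): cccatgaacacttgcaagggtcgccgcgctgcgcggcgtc
A run of this kind was present in 23 of 66 member promoters (34.8%, against 12.0% of 32851 promoters). The motif CCGGAAG, the core bound by ETS factors, was found on either strand of the 300 bases in 25 member promoters (37.9%, against 8.86%), and TATAAA in 6 (9.09%, against 13.6%); annotated starts can lie some bases from the start in use, so that an absent run says only that these letters are not in the window. The medians of members with and without a run had the same sign in each strain. In C57 the median was 0.26 for 21 tested members with a run and 0.19 for 31 without, in MF1 it was -0.14 and -0.096, and over both strains 0.061 and 0.058. The median dye-order difference was 0.16 with a run and 0.28 without. These medians are descriptions, with no test.

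Other genes of the translation machinery were read beside the set, from lists in which 0 probes passed the test in any direction. Of 61 mitochondrial ribosomal protein probes, 51 had a mean ratio above 0, with medians of 0.16 and 0.32 in C57 and -0.15, 0.15 and -0.044 in MF1, and 31.0% of those measured everywhere had both C57 pools above all MF1 pools. The share was 23.8% for translation initiation factors, 21.1% for elongation and termination factors, 19.4% for ribosome biogenesis genes and 0 of 11 for mTOR and S6 kinase signalling. Outside translation it was 46.7% for subunits of oxidative phosphorylation, 41.2% for the proteasome and 42.1% for abundant housekeeping genes. All of these but the mTOR list exceeded the 15.2% of all probes, and the ribosomal proteins had 76.9%. After centring by pool, that order was found in 3 of 65 members (4.62%, against 6.63% of probes). It was then 10 of 58 for mitochondrial ribosomal proteins, 3 of 42 for initiation factors and 0 of 19 for elongation and termination factors. It was 2 of 31 for ribosome biogenesis, 0 of 11 for the mTOR list and 4 of 60 for oxidative phosphorylation. It was 1 of 34 for the proteasome and 2 of 19 for housekeeping genes.

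**Figure D4:**
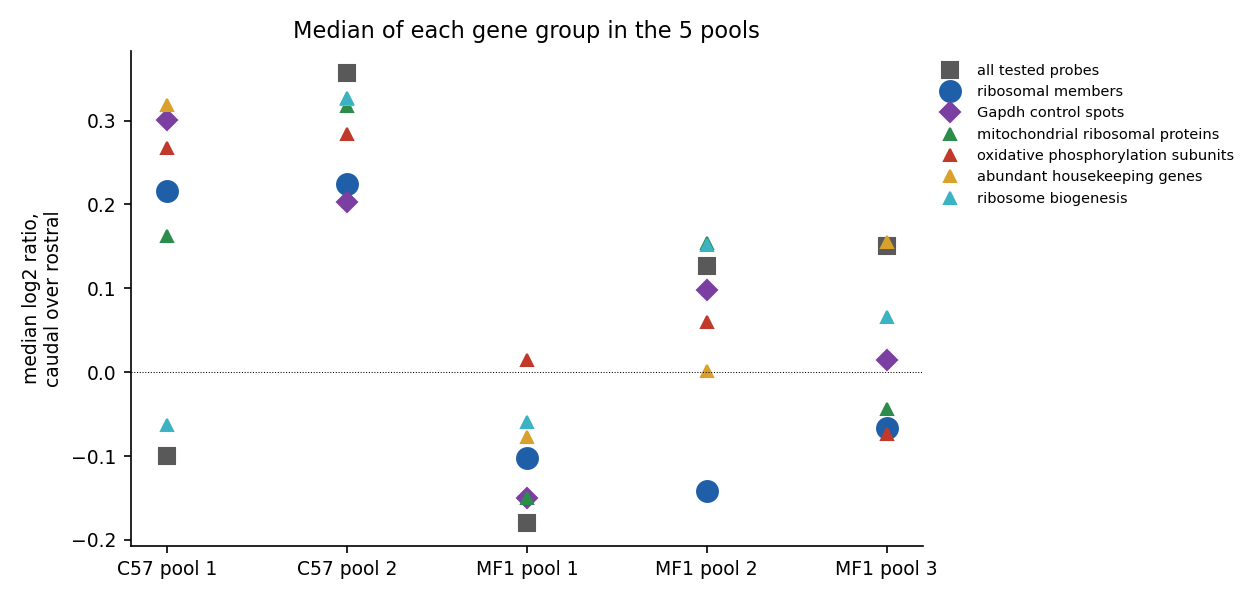
Each symbol is the median log2 ratio of caudal over rostral RNA (vertical axis) of a gene group in a pool (horizontal axis); grey squares are all tested probes and purple diamonds the 225 to 227 Gapdh control spots of an array pair. The ribosomal members (blue circles) are positive in both C57 pools and negative in the 3 MF1 pools, where the medians of all probes are -0.18, 0.13 and 0.15.

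With the arrays used as deposited, measures outside the set moved with strain as well. The Gapdh control spots, one glycolytic gene printed many times, had medians of 0.30 and 0.20 in C57 and -0.15, 0.098 and 0.015 in MF1, so that the C57 pools were above all MF1 pools there too. Of the erythroid markers, 7 of 8 were tested; their median was 0.64 and 0.39 in C57 and -0.030, 0.26 and 0.18 in MF1, and 4 of 6 measured everywhere had the C57 pools above the MF1 pools. Of the markers of dorsal telencephalon and neuroepithelium, all 11 were tested, with medians of 0.21 and 0.28 in C57 and -0.25, -0.39 and 0.10 in MF1, and 5 of 9 had that order. It was also found in 2 of 7 markers of early neurons, 2 of 6 of the hem and choroid plexus and 3 of 6 of the ventral telencephalon. It held for 1 of 3 of surface ectoderm, 1 of 4 of the meninges and mesenchyme and 1 of 4 of endothelium, against 15.2% of all probes. With each pool centred on all tested probes, the order was found in 2 erythroid, 1 dorsal and 0 early neuron markers. For the remaining lists, in the sequence above, it was then found in 2, 3, 2, 1 and 2 markers, against 6.63% of all probes. The number of probes with a ratio was also higher on every C57 array than on every MF1 array. The part of these in the ribosomal shift was not tested. The labels name no hybridisation batch and each strain lies on arrays of its own, so that strain and such a batch cannot be told apart.

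The 10 member probes that were not tested lacked both dye orders in too many pools. Rpl35, Rps20 and Rps21 each had a ratio on 8 arrays and lacked the same 2, those of C57 pool 2 and MF1 pool 1 with Cy5 on the caudal RNA; 109 probes in all were missing on exactly these 2. In the pools that were complete, Rpl35 gave 0.31 in C57 pool 1 and 0.035 and -0.090 in MF1 pools 2 and 3, Rps20 gave 0.099, -0.33 and -0.064, and Rps21 gave 0.32, -0.20 and -0.050. In each of these 3, C57 pool 1 was above MF1 pools 2 and 3. This order over 3 pools is looser than the order over all pools, and its share over all probes was not counted. Rps4l, complete in 2 pools, went the other way, with 0.10 in C57 pool 1 and 0.20 in MF1 pool 3. The first Rps18 probe was measured on 9 arrays, Rpl3l and the second Rps18 probe on 8, Rps4l on 7, Rpl37 on 3, the second Rps16 probe on 2 and the second Rps12 probe on 1. The second Rps18 probe gave -2.59 in C57 pool 1, far below every tested member there. No ratio of Rpl10l was analysed here.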

How the data were processed

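The data are 10 two-colour arrays of neocortex from mouse embryos at E11.5. Per the labels' protocols, RNA was extracted with Trizol and cDNA amplified with the SMART system before labelling. The deposited values are log2 ratios of the channels, a scale read from the values; the sources used here do not give array type, background correction or normalization. Values at the shared ceiling of 16.61 (436 values) were treated as missing, and 232 Gapdh control spots were left out of the tests.

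Ratios were turned to caudal over rostral by the dye labels, without centring, and averaged over the dye orders of a pool. Probes with both dye orders in at least 2 pools of each strain were tested (11855; 8924 in all 5 pools) by limma 3.58.1 (lmFit and eBayes; R 4.3.3), strain by strain. Contrasts were the mean of both strains, each strain, MF1 minus C57 and, from within-pool differences, dye order. Tests were two-sided, with Benjamini-Hochberg adjustment over all tested probes and a threshold of 0.05; errors are moderated SE, and p-values rest on the spread from pool to pool. The fit was tested on simulated data. Of all probes, 16632 had 1 symbol, 139 several and 4995 none.

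The members and gene lists were chosen with earlier results of these data known. Named members are the 5 of smallest p per direction for the mean of both strains and for dye order, the 2 per direction for the strain difference, symbols with 2 probes, paralogs and their partners, and Rplp0 to Rplp2, Rpsa, Rps6, Rpl5, Rpl11, Rpl10 and Rpl38. Members not tested were named to account for every probe, and Rpl22, Rpl14, Rpl34 and Rps19 were named for the centred overlap after their values were seen. Alternatives covered centring, scaling, the probe filter, averaging of probes, ceiling values, dye orders, the model and leaving out each pool; centring by pool, Gapdh spots as reference and leaving out the snoRNA-series probes were added after seeing the data. The check of pairing by replicate number is given with the alternatives. Figures were drawn with matplotlib 3.10.9.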

Additional observations from a re-analysis of the deposited data

Results flagged for a closer look

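The member median of the strain difference, MF1 minus C57, was -0.33, and the medians of both C57 pools were above 0 while those of all 3 MF1 pools were below 0. Every C57 pool was positive and every MF1 pool negative in 33 of 65 members (50.8%, against 4.25% of probes). The named members that follow were among these. Their differences MF1 minus C57 were -0.78 for Rpl30, -0.71 for Rps29, -0.54 for Rpl38, -0.49 for Rplp2, -0.48 for the first Rpl27a probe and -0.45 for Rps3. They were -0.43 for Rplp1, -0.42 for Rpl39, -0.42 for Rpl13a, -0.39 for the first Rps12 probe, -0.37 for Rpl10a and -0.34 for Rpl10. Rpl7 differed by -0.34, Rpl11 by -0.31, Rps3a1 by -0.28, Rps6 by -0.25, the second Rpl35a probe by -0.25 and Rpl5 by -0.21. In limma's test of the strain difference the adjusted p of each was 0.999 or more. With each pool centred on all tested probes, 1 of the 65 members had every C57 pool positive and every MF1 pool negative. That is 1.54%, against 1.62% of probes. No group has the 4 samples that a check for outlying samples needs.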

How the results depend on the processing

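No member passed the threshold in any contrast under any alternative run, in either direction; the replicate block, with pool numbers shared across strains as a block, gave 0 members called in each contrast, and the dye-order fit with no replicate block also gave 0. The numbers do not pair the strains: deviations of same-numbered pools correlated at 0.15 and -0.022, and the pools are of different litters. The count of members with both C57 pools above all MF1 pools was 50 as reported. It was 4 with centred arrays, 5 with centred and scaled arrays and 3 with each pool centred on all tested probes. It was 5 against the Gapdh control spots and 23 where only arrays with Cy5 on the rostral RNA were used. The shares against those of all probes were 76.9% and 15.2% as reported, 6.15% and 6.49%, 7.69% and 8.54%, 4.62% and 6.63%, 7.69% and 2.05%, and 35.4% and 15.5% in this order. Leaving out a pool can only keep or raise this count, so its range of 50 to 59 there is no check of it. The share of all probes rose as well, from 15.2% to between 18.0% and 48.2%. The 59 came without C57 pool 1 (90.8%, against 48.2%). The number of pools whose member median exceeded that of all tested probes was 2. Leaving out a pool could only take that pool out of this count, so the resulting 1 or 2 is no check of it. In C57 pool 1 the member median lay 0.32 above that of all probes but at -0.084 against the Gapdh spots; in C57 pool 2 the same value turned from -0.13 to 0.021, so that C57 pool 2 took the place of C57 pool 1 beside MF1 pool 1 among these 2 pools. Of the other alternatives for these summary values, 221 stayed within the spread between pools or within 1.5 times the count. These include counts of 0 that stayed at 0. The spread was wide, with an SD over pools of 0.24 for the ratio and 0.16 for the dye-order difference. Within it the member median minus that of all probes changed sign over both strains (-0.13 to 0.057) and in C57 (-0.13 to 0.32). In the strain difference it ran from -0.44 to -0.014. The by-pool medians carry no test, so no replicate block was run for them. The 2 and 3 pools per strain, the ratio values without signal levels and the missing values of the MF1 arrays limit what could be detected.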
